A study of Arabidopsis thaliana with 36 samples.

Results

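Hypocotyls of Arabidopsis plants grown in orbit were compared with the leaves and the roots of the same flight plates. The comparison used 15 of the 36 arrays of the series, 5 each of flight hypocotyls, flight leaves and flight roots. Every hypocotyl array was set against the mean log2 signal of the leaf array and the root array that carry the same plate and replicate number. All 22746 probe sets of the array other than its 64 controls were tested. A transcript was called hypocotyl-peaked where hypocotyls were above leaves and also above roots, and hypocotyl-poor where they were below both, each at an adjusted p under 0.05. By this rule 894 probe sets were peaked and 691 were poor. At the edge of the rule, the larger of the 2 adjusted p was 0.0499 for AT3G02120, which counts as peaked, and 0.0501 for LYK5, which does not, and 0.0499 for AUL1, which counts as poor, and 0.05 for UTR2, which does not.

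The plants germinated on the International Space Station and grew for 12 days on solid medium in vertical plates in the Advanced Biological Research System, a growth chamber. The ground control plates grew in the same kind of hardware, in a chamber at Kennedy Space Center that followed the recorded station conditions with a delay of 48 h. The labels describe all organ samples, flight and ground alike, as 60% WS and 40% Col-0, and the plants of both environments carried Green Fluorescent Protein reporter genes (Adh::GFP, DR5::GFP or a 35S promoter construct). Plants were fixed in RNAlater and dissected after return. Each plant gave 3 fractions: the leaves with their petioles, which the labels name SHOOTS, the stem piece below the rosette, which is the hypocotyl, and everything under that piece as roots. Every array is a pool of several plants from 1 of 3 plates, with 1 replicate from plate 2 and 2 each from plates 4 and 6, so that replicates of plates 4 and 6 share a plate.

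The hypocotyl is the stem of the seedling. In light-grown plants it elongates little, and after that it grows in girth through the vascular cambium, a cylinder of dividing cells that forms xylem inward and phloem outward. Its cortex and epidermis are made in the embryo, and the shoot apical meristem with its leaf primordia sits directly on its upper end. Because the samples are whole organs, a lower signal can come from fewer cells of a type or from less RNA per cell, and the arrays cannot tell these apart.

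The organs were separated clearly on the arrays. Pearson correlations of the log2 signals were taken without the 9098 probe sets of lowest mean signal. They were between 0.925 and 0.974 among flight arrays of the same organ. Hypocotyl arrays correlated with leaf arrays at 0.725 to 0.793 and with root arrays at 0.75 to 0.828, while leaf and root arrays correlated at 0.57 to 0.641. Median signals lay between 171.9 and 180.3 in flight hypocotyls, 158.4 and 174.8 in leaves and 179.8 and 203.3 in roots. The lower quartile lay between 28.2 and 33.8 in hypocotyls, 31.2 and 34.5 in leaves and 38.1 and 47.0 in roots, so that low signals of roots read somewhat higher. Among the ground arrays, the plate 2 leaf array stood apart with a lower quartile of 68.9.

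Across all probe sets, flight hypocotyls were higher than the mean of leaves and roots for 2583 probe sets (11.4%) and lower for 2273 (9.99%). The median difference over all probe sets was 0.02 on the log2 scale. Against leaves alone, 4184 probe sets were higher (18.4%) and 3059 lower (13.4%), and against roots alone 2690 were higher (11.8%) and 2982 lower (13.1%). A difference from the mean did not by itself place a transcript above or below both organs. Of the 2583 higher probe sets, 894 were peaked (3.93% of those tested), 120 lay between leaves and roots and 1569 fell in no class, since 1 of the 2 organ contrasts missed the threshold. Of the 2273 lower ones, 691 were poor (3.04%), 154 lay between and 1428 fell in no class. In all, 1456 probe sets (6.4%) lay between, with 898 in the order leaves, hypocotyls, roots and 558 in the order roots, hypocotyls, leaves.

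**Figure D1:**
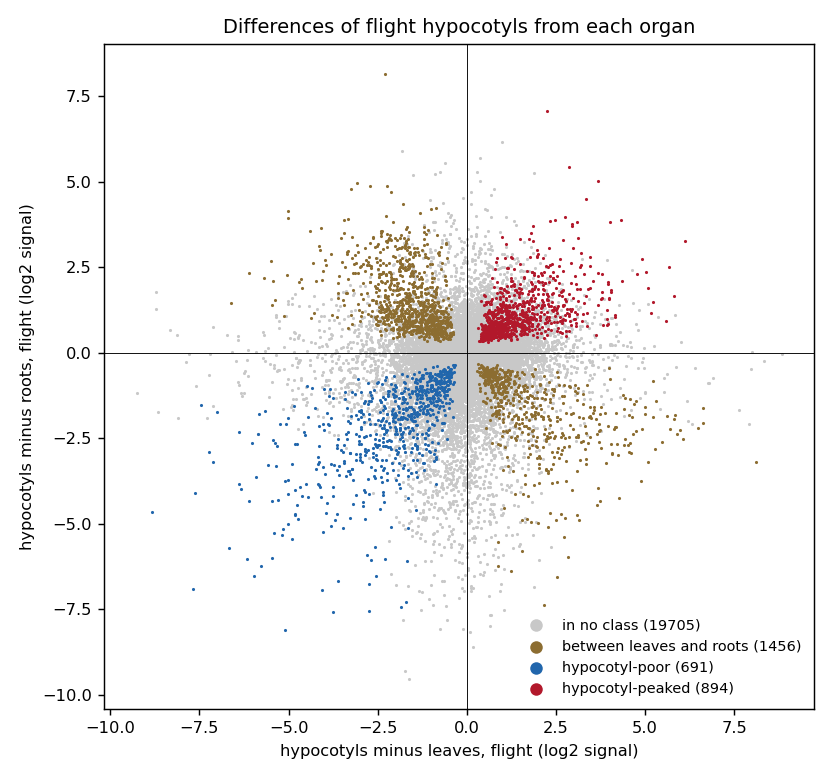
Each point is 1 of the 22746 probe sets, with the fitted log2 difference of flight hypocotyls from flight leaves on the x axis and from flight roots on the y axis. The 894 hypocotyl-peaked probe sets lie in the upper right and the 691 hypocotyl-poor ones in the lower left, the 1456 in between lie in the other quadrants, and the 19705 grey points are in no class.

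The 2 classes differed in size of change and in signal. In the peaked class the smaller of the 2 differences had a median of 0.84 on the log2 scale, and it reached at least 1 for 328 probe sets, at least 2 for 60 and at least 3 for 7. In the poor class its median was 1.42, and it reached at least 1 for 472 probe sets, at least 2 for 205 and at least 3 for 77. Few peaked probe sets were of low signal. A mean signal under 95.5 over the flight organ arrays, which holds for 9098 of the probe sets tested and is called low here, was found for 51 of the 894 peaked and 244 of the 691 poor probe sets, and the hypocotyl mean itself was under that limit for 400 poor probe sets. In the peaked class the leaf mean was under the limit for 125 probe sets and the root mean for 88. Low signals are the least precise on these arrays, so the size of a difference into this range is uncertain.

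The classes were called from these same 5 pools, so the order of the organs within them is no separate check. In 824 of the 894 peaked probe sets the hypocotyl array was above its own leaf and root arrays in all 5 pools, and in 69 more in 4 of them. In 618 of the 691 poor probe sets it was below both in all 5. Over all probe sets, 1416 (6.23%) had hypocotyls above both in all 5 pools and 851 (3.74%) had them below both. Peaked transcripts were nearer in level to roots for 616 probe sets and to leaves for 278, and poor ones to roots for 313 and to leaves for 378. This split was not counted over all probe sets, where the median difference was 0.14 from leaves and -0.06 from roots. It is therefore not read as a trait of the classes.

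The 12 peaked genes named by rule, those with the largest smaller difference above the low-signal limit and in order in all 5 pools, included several enzymes of cell wall and carbon metabolism. Differences are on the log2 scale with the standard error of the fit, and per-array signals are given in the order plate 2, plate 4 replicates 1 and 2, and plate 6 replicates 1 and 2. AT5G59305, a locus without a gene symbol in the tables used, read 2409, 3162, 2524, 5013 and 5215 in flight hypocotyls, 159, 114, 89.5, 206 and 469 in leaves and 317, 178, 153, 390.0 and 208 in roots. Its hypocotyl arrays were all above its leaf and root arrays, with a difference from the mean of 4.11 ± 0.27 (adjusted p = 2.1e-05). MIPS2, a myo-inositol-1-phosphate synthase, read 2571, 3192, 1946, 2665 and 3519 in hypocotyls against 417 to 518 in leaves and 219.9 to 542 in roots. Its difference from the mean was 2.68 ± 0.15 (adjusted p = 1.3e-05), with little spread among the leaf arrays.

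CYP78A9, a cytochrome P450 whose family acts on organ size, read 985, 1006, 1248, 620.2 and 1036 in hypocotyls and no more than 161 in any leaf or root array, a difference of 3.07 ± 0.18. GDH3, a subunit of glutamate dehydrogenase, read 928, 522, 651, 704 and 737 in hypocotyls against 57.4 to 105 in leaves and 36.9 to 106 in roots, a difference of 3.23 ± 0.26. In both genes leaves and roots overlapped and hypocotyls stood alone. BGL2, a beta-1,3-glucanase known as the defence gene PR2, read 4261, 2184, 1968, 2496 and 5808 in hypocotyls, 476, 428, 254, 668 and 381 in leaves and 99.2, 37.1, 67.5, 73.9 and 100.2 in roots. Here the organs were ordered hypocotyls, leaves, roots without overlap, and the hypocotyl arrays of plate 2 replicate 1 and plate 6 replicate 2 were the highest.

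AT1G10640 and AT1G60590, annotated as polygalacturonases, enzymes that cut pectin, were higher by 2.99 ± 0.19 and 3.37 ± 0.20. AT1G10640 read 3721, 3479.7, 3341, 2907 and 3324 in hypocotyls against 350.1 to 727 in leaves and 231 to 484 in roots. The other genes of this set were AT2G15780 (annotated for copper ion binding), AT3G02500, AT3G62960 (annotated as a protein disulfide oxidoreductase), AT1G19540 and AT5G53820, with differences of 4.69, 3.45, 3.33, 3.14 and 3.82. The call for AT2G15780 depended on single pools. Its leaf arrays were near the floor (21.5, 9.89, 9.69, 52.5 and 2.46), its standard error was the largest of the 12 at 0.71, and it was no longer peaked without the plate 2 pool or without either plate 4 pool.

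**Figure D2:**
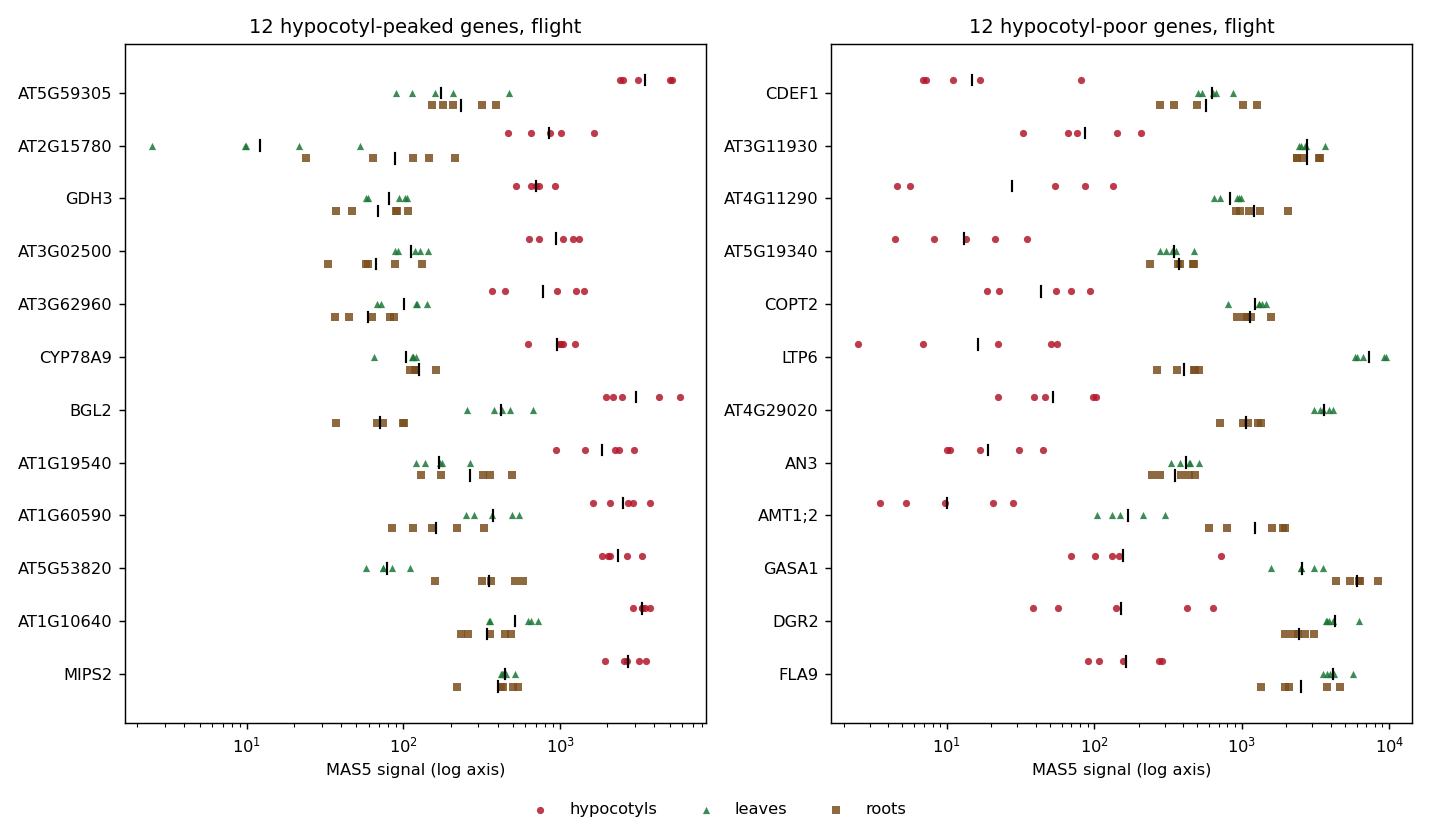
MAS5 signal on a log axis of the 12 hypocotyl-peaked genes (left) and the 12 hypocotyl-poor genes (right) named by rule, with 1 point for each of 5 flight arrays per organ and a black tick at the geometric mean. The hypocotyl arrays lie to the right of all leaf and root arrays for genes such as MIPS2 and CYP78A9 on the left, and to the left of them for genes such as LTP6 and FLA9 on the right.

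Genes of the shoot meristem and of organ boundaries, which keep the cells at the shoot tip dividing and set leaves off from the stem, were high in hypocotyls. Of 19 measured, 10 were higher than the mean, none was lower and the same 10 were peaked, with a list median of 1.60 against 0.02 over all probe sets. Every flight list count below stands beside shares over all probe sets of 11.4% higher, 9.99% lower, 3.93% peaked, 3.04% poor and 6.4% between. STM, the homeobox gene that maintains the shoot meristem, read 2354, 2429, 1383, 2769 and 3436 in hypocotyls, 512, 413, 333, 633 and 715 in leaves and 39.4, 26.5, 4.58, 20.8 and 17.1 in roots. Hypocotyls were above leaves by 2.24 ± 0.34 and above roots by 7.07 ± 0.34, and no 2 organs overlapped. KNAT1, a related homeobox gene active in stems and the meristem, read 4746, 4848, 4534, 3829 and 3683 in hypocotyls against 226 to 613 in leaves and 921 to 1110.2 in roots. KNAT2 (3.09 ± 0.24) and KNAT6 (1.68 ± 0.28, lost with means per plate) of the same family were also peaked.

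The boundary genes LSH3 and LSH4 were higher by 1.60 ± 0.18 and 2.08 ± 0.15, BOP2 by 1.60 ± 0.23, and the homeobox genes ATH1 and RPL by 2.14 ± 0.29 and 1.73 ± 0.11. ATH1 was closest to the threshold against leaves (1.09 ± 0.33, adjusted p = 0.031). It lost its class when any pool but plate 4 replicate 2 was left out, under quantile normalisation and with means per plate. CUC1 was called as well (2.19 ± 0.52), at low signal. The genes that define the stem cell centre itself were at the floor. WUS read 1.58 to 22.7 and CLV3 1.56 to 40.8 in flight hypocotyls, and neither was called (adjusted p = 0.42 and 0.43). The dissection protocol does not say into which piece the shoot apex went, and its part in these differences was not tested.

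Xylem genes were also high in hypocotyls. Of 29 genes of secondary cell walls and xylem, the water-conducting tissue with thick lignified walls, 20 were higher than the mean and 16 were peaked, with none lower and a median of 1.65. LAC4, a laccase that polymerises lignin, read 981, 1299, 1307, 1099 and 1042 in hypocotyls, 138, 97.6, 163, 165 and 115 in leaves and 265, 399, 337, 341 and 245 in roots. The 3 organs did not overlap, and the difference from the mean was 2.48 ± 0.15 (adjusted p = 1.7e-05). IRX9, a glycosyltransferase of xylan synthesis, read 879.9, 863, 801, 1201 and 1138 in hypocotyls against 82.6 to 174 in leaves and 225 to 354 in roots, a difference of 2.29 ± 0.15.

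The cellulose synthase subunits of the secondary wall, IRX1, IRX3 and CESA4, were higher by 2.09 ± 0.15, 1.97 ± 0.20 and 1.38 ± 0.13. IRX1 was above roots by 1.76 ± 0.17 and above leaves by 2.42 ± 0.17, with 1234, 1096, 1015, 1229 and 837 in the hypocotyl arrays. XCP1 and XCP2, proteases that clear the contents of dying xylem vessels, were above leaves by 2.95 ± 0.25 and 1.76 ± 0.14 and above roots by 1.27 ± 0.25 and 1.55 ± 0.14. XCP1 read 1617, 2739, 3261, 1488 and 764 in hypocotyls, with the plate 6 replicate 2 array overlapping the root range of 435 to 1046. Among the regulators, VND7, which switches on vessel formation, was higher by 1.29 ± 0.15 and MYB46, which acts below it, by 1.84 ± 0.19. NST1 was peaked at low signal (2.88 ± 0.70), while 10 of the 29 genes were of low signal, NST3 and VND6 among them.

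Of 18 measured enzymes of lignin synthesis, 8 were higher and 4 lower than the mean, but 5 lay between the organs, 1 was peaked and 1 was poor, with a median of 0.28. C4H averaged 6344 ± 678 in hypocotyls (SD, n = 5), 2802 ± 359.8 in leaves and 7832 ± 1342 in roots, and the difference from roots was not called (-0.29 ± 0.16, adjusted p = 0.22). PRX52, a peroxidase, was the peaked member (2.78 ± 0.41, at low signal, lost without plate 4 replicate 1 and with means per plate). FAH1, ferulate 5-hydroxylase, was the poor one (-1.15 ± 0.22).

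Of 16 genes of the cambium and procambium, the dividing vascular cells, 15 were higher than the mean, 12 were peaked and 2 lay between, with a median of 1.36. PXY, the receptor kinase that keeps cambium cells dividing, read 1525, 1154, 1365, 1513 and 1391 in hypocotyls, 328, 287, 216, 395 and 412 in leaves and 661, 452, 495, 629 and 524 in roots. Hypocotyls were above roots by 1.34 ± 0.15 and above leaves by 2.12 ± 0.15, and the organs did not overlap. CLE41 and CLE44, from which the peptide that binds PXY is cut, were counted with the phloem list and were also peaked, with differences from leaves of 1.65 ± 0.17 and 0.96 ± 0.15.

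LBD4 and LBD3, transcription factors that act in secondary growth, were higher by 2.26 ± 0.15 and 3.16 ± 0.32. LBD3 read 1848, 2568, 3485, 1070.4 and 1329.6 in hypocotyls against 26 to 107 in leaves and 638 to 1061 in roots. The plate 6 replicate 1 array of hypocotyls came within 10 units of the highest root array, and the difference from roots (1.16 ± 0.37, adjusted p = 0.047) was close to the threshold and was lost in 6 of 14 alternatives, 4 of which left out 1 pool. CYCD3;1, a D-type cyclin that drives cambial division, read 3739, 4827, 3871, 4444 and 4282 in hypocotyls and 1589.6 to 3051 in roots, a difference of 0.90 ± 0.16. It was no longer peaked with means per plate. The class III homeodomain genes HB-8, PHB, REV and HB-15, which pattern vascular tissue, were higher by 1.61, 1.46, 1.06 and 1.34, and MP, the auxin response factor upstream of vascular formation, by 1.23. Of these, HB-8 was no longer peaked when any pool but plate 6 replicate 1 was left out, or with means per plate.

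Phloem genes were mixed. Of 14 measured, 6 were higher and 3 lower than the mean, against 11.4% and 9.99% of all probe sets. In the list, 4 were peaked and 1 was poor, with a median of 0.49. OPS, which promotes phloem identity, was peaked (1.53 ± 0.15), as was PP2-A1, a phloem lectin (1.44 ± 0.20). PP2-A1 lost its class when any pool but plate 4 replicate 2 was left out. It also lost it with means per plate and when arrays were scaled to a shared 75th percentile. SWEET11, a sucrose exporter that loads the phloem of leaves, was poor. It read 95.1, 239, 42, 116 and 114 in hypocotyls, 4976, 3586, 5685, 5786 and 5256 in leaves and 2156, 524, 589.9, 1573 and 1010.2 in roots, below both organs in every pool, with a difference from their mean of -4.42 ± 0.39.

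Genes that plants switch on when oxygen is short were high in hypocotyls. Of 10 measured, 7 were higher than the mean, none was lower, 6 were peaked and 1 lay between, with a median of 1.95, the highest of the 24 lists described here. LBD41, a transcription factor induced by low oxygen, read 11836, 8817, 7974, 13176 and 11840.3 in hypocotyls, 5301, 1853, 2789.8, 3877 and 3580.2 in leaves and 2313, 1859, 1432, 2228 and 2345 in roots. All hypocotyl arrays were above all others, and the difference from the mean was 2.04 ± 0.15 (adjusted p = 3.2e-05). SUS4 and SUS1, sucrose synthases that feed glycolysis, were higher by 2.62 ± 0.26 and 1.86 ± 0.16, and both were nearer to roots, with differences from roots of 1.10 ± 0.31 and 0.95 ± 0.18. SUS4 was no longer peaked without plate 2, plate 4 replicate 2 or plate 6 replicate 1, or with means per plate.

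PCO1 and PCO2, oxidases that mark ethylene response factors for degradation when oxygen is present, were higher by 1.22 ± 0.20 and 2.04 ± 0.23. Neither was peaked with means per plate. ADH1, alcohol dehydrogenase, read 4328, 3752, 4953, 2592 and 1788 in hypocotyls and 1057, 2071, 2349, 274 and 1189 in roots. These ranges overlapped across plates, the root array of plate 6 replicate 1 was the lowest, and the gene was no longer peaked without the plate 2 pool. PDC1, pyruvate decarboxylase, read 2389, 2495, 4004, 3394 and 1916 in hypocotyls, 221, 10.5, 78.1, 142 and 139 in leaves and 727, 1354, 1557, 741 and 994 in roots. Hypocotyl arrays were above all root arrays, but the fit called the gene only against leaves and the mean (3.25 ± 0.58) and not against roots (1.42 ± 0.67, adjusted p = 0.16). HRE1, a low-oxygen transcription factor, lay between, with 323 ± 140.4 in hypocotyls and its highest level in roots (839 ± 177, SD, n = 5). It no longer lay between when any pool but plate 4 replicate 1 was left out, or with means per plate.

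Genes of auxin transport and response went both ways. Of 29 measured, 9 were higher and 6 lower, against 11.4% and 9.99% of all probe sets. In the list, 5 were peaked, 3 poor and 2 between, against 3.93%, 3.04% and 6.4% of all, with a median of 0.18. The peaked members described here were carriers. The influx carriers LAX1, LAX2 and AUX1 were higher by 1.75 ± 0.15, 1.39 ± 0.15 and 0.92 ± 0.13, and the efflux carrier PIN3 by 0.92 ± 0.11. LAX1 read 1512, 2025, 1797, 1254 and 1468 in hypocotyls against 488 to 641 in leaves and 334 to 615 in roots. The poor members were the efflux carriers ABCB19 (-1.67 ± 0.14) and PIN7 (-1.43 ± 0.24, lost with means per plate) and the repressor IAA14 (-1.49 ± 0.26, at low signal). ABCB19 varied little among hypocotyl arrays, at 548, 513, 515, 525 and 529, while its leaf arrays read 1838 to 2441 and its root arrays 941 to 1755.

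Of 11 genes of gravitropism, the bending of organs along gravity, 3 were higher and 1 lower than the mean, against 11.4% and 9.99% of all probe sets. PIN3 was peaked, SCR was poor and 1 gene lay between, with a median of 0.26. LAZY1 and GRV2 lost their calls against the mean in 4 and 8 alternatives. SCR, a transcription factor of the starch-bearing endodermis and of the root endodermis, read 39.2, 43.1, 37.7, 60.5 and 21.9 in hypocotyls, 416, 346, 413, 414 and 362 in leaves and 381, 443, 609, 267 and 492 in roots. Leaves and roots overlapped fully and hypocotyls were far below both, with a difference of -3.40 ± 0.24. SHR, which moves into the endodermis to switch on SCR, was not called against the mean (0.56 ± 0.22, adjusted p = 0.11).

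**Figure D3:**
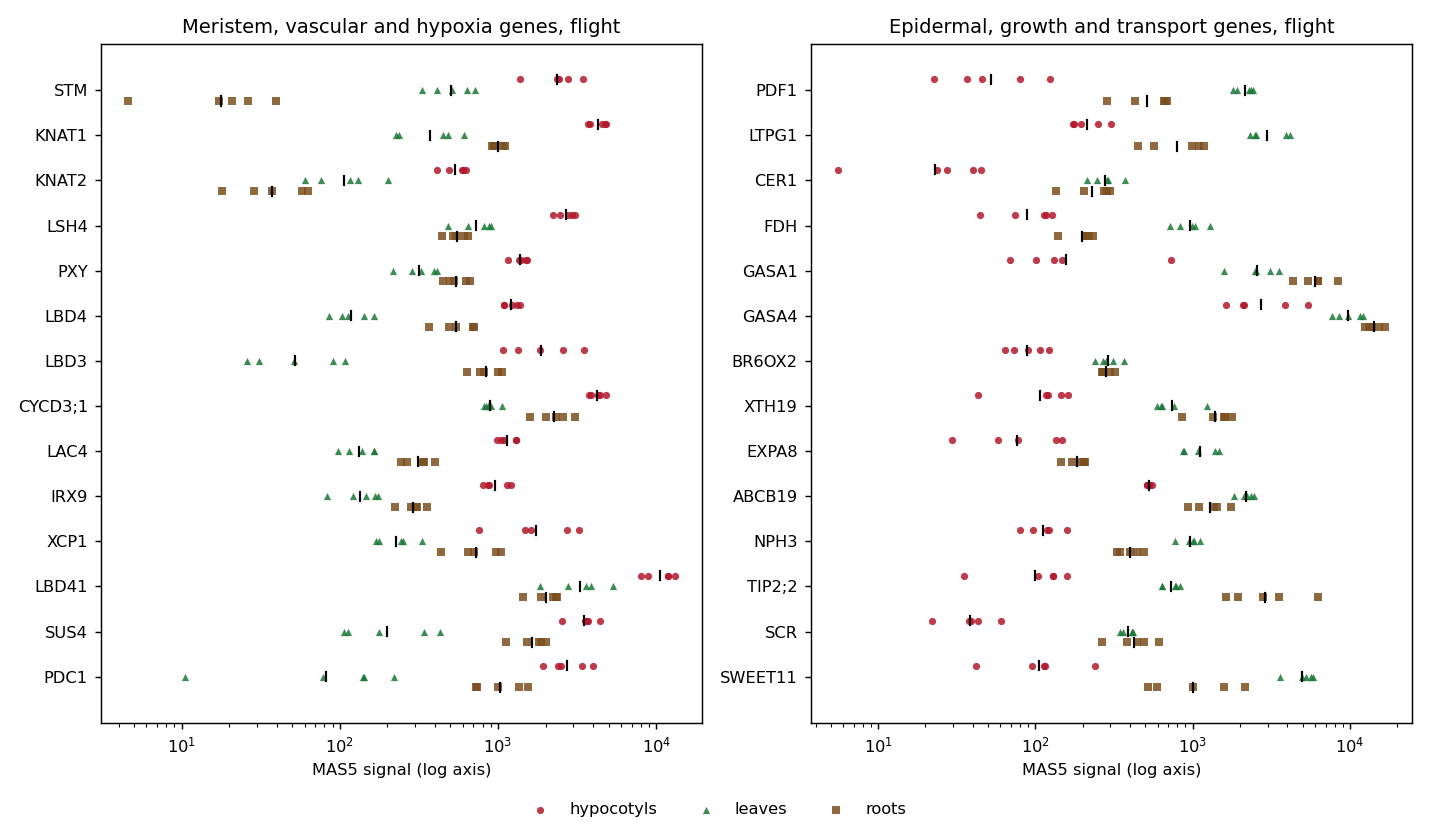
MAS5 signal on a log axis of 14 meristem, vascular and hypoxia genes (left) and 14 epidermal, growth and transport genes (right), with 1 point for each of 5 flight arrays per organ and a black tick at the geometric mean. STM and LBD41 show hypocotyl arrays above all others, PDC1 shows root arrays between the hypocotyl and the leaf arrays, and SCR and ABCB19 show hypocotyl arrays below all others.

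The 12 poor genes named by rule included transporters and surface proteins. LTP6, a lipid transfer protein, read 2.49, 55.7, 51.2, 6.92 and 22.4 in hypocotyls, 6681, 9209, 9514, 6009 and 5879 in leaves and 266, 513, 479, 364 and 474 in roots, with a difference from the mean of -6.74 ± 0.49. Hypocotyls were at the floor, roots were intermediate and leaves were far above. AN3, a coactivator that prolongs cell division in leaf primordia, read 10.1, 16.8, 44.7, 30.8 and 10.5 in hypocotyls and 245 or more in every leaf and root array, a difference of -4.34 ± 0.25 (adjusted p = 1.4e-05). COPT2, a copper importer, read 69.4, 54.9, 18.7, 93.6 and 22.7 in hypocotyls against 807 to 1461 in leaves and 925 to 1574 in roots, a difference of -4.77 ± 0.37.

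GASA1, a gibberellin-regulated cell wall peptide, read 147, 725, 101, 132 and 69.1 in hypocotyls, with plate 4 replicate 1 well above the other pools, and 1587 to 3553 in leaves and 4350.3 to 8389 in roots. CDEF1, an esterase that degrades cutin, read 16.8, 81.5, 7.2, 6.86 and 11 in hypocotyls and had its highest hypocotyl value in the same pool. Both were still below leaves and roots in that pool, with differences from the mean of -4.64 ± 0.39 and -5.33 ± 0.50. AMT1;2, an ammonium importer, differed from the mean by -5.50 ± 0.47, with 3.52 to 28.3 in hypocotyls, 105 to 302 in leaves and 598 to 1956 in roots.

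The cell wall genes FLA9 and DGR2 differed from the mean by -4.30 ± 0.22 and -4.41 ± 0.51. FLA9, a fasciclin-like arabinogalactan protein, read 158, 275, 287, 108 and 90.3 in hypocotyls against 3582 to 5712 in leaves and 1356 to 4627 in roots. The remaining 4 were AT3G11930 (annotated for the response to stress), AT4G11290 (annotated as a peroxidase), AT5G19340 and AT4G29020, with differences of -5.01, -5.19, -4.80 and -5.22. With an offset of 36.5 signal units added before taking log2, the differences of the 12 poor genes went from the range -6.74 to -4.30 to the range -4.90 to -2.87, and those of the 12 peaked genes from 2.68 to 4.69 to 2.58 to 3.86.

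Genes of the epidermis and its waxy cover held more poor members than any other of the 24 lists. Of 20 genes of cuticle and wax, 16 were lower than the mean, none was higher, 10 were poor and 2 lay between, with a median of -1.83. PDF1, a marker of the outer cell layer, read 36.6, 123, 80, 22.7 and 45.9 in hypocotyls, 2421, 2286, 2353, 1796 and 1923 in leaves and 285, 654, 428, 669.7 and 686 in roots, without overlap and with a difference from the mean of -4.34 ± 0.32. LTPG1, which exports wax, read 174, 249, 177, 195 and 302 in hypocotyls against 2323 to 4139.5 in leaves and 451 to 1174 in roots, a difference of -2.85 ± 0.23.

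CER1, which makes the alkanes of wax, differed from the mean by -3.45 ± 0.35, CER3, its partner, by -1.71 ± 0.20, and FDH, a fatty acid elongase of the epidermis, by -2.29 ± 0.18. The cutin genes GPAT8 and LACS2 differed from it by -2.13 ± 0.26 and -1.48 ± 0.16. CER3 was no longer poor without plate 4 replicate 2 or either plate 6 pool or under quantile normalisation. LACS2 was no longer poor without plate 4 replicate 1 or either plate 6 pool. Neither was poor with means per plate.

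Leaf and stomatal regulators were near the floor in hypocotyls. Of 13 genes of stomata and leaf polarity, 9 were lower than the mean and none higher, 1 was poor and 1 lay between, and 12 of the 13 were of low signal over the 15 arrays, with a list median of -2.19. STOMAGEN, a peptide from inner leaf tissue that raises stomatal number, read 87.1, 54.9, 33.3, 149 and 179 in hypocotyls, 3499, 2998, 2674, 2755 and 2087 in leaves and 14.3, 25.4, 6.4, 41.4 and 17 in roots. YAB1, a regulator of the lower leaf side, averaged 353 ± 105 in leaves and 18.1 ± 16.1 in hypocotyls (SD, n = 5). The 1 poor member was TCP4, a leaf growth regulator, at low signal (-3.10 ± 0.38).

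Of 22 root markers, 12 were lower and 1 was higher than the mean, 3 were poor and 1 lay between, and 17 were of low signal. CASP1, which builds the Casparian strip of the root endodermis, averaged 4175 ± 1839.5 in roots, 35.3 ± 17 in hypocotyls and 45.3 ± 44.7 in leaves (SD, n = 5). The poor members were SCR, GL2, a regulator of root hairs and leaf hairs (-3.38 ± 0.41), and HKT1, a sodium transporter (-4.17 ± 0.37), the last 2 at low signal. BGLU23 lay between, with 16086 in hypocotyls, 30351 in roots and 1992 in leaves on average. It was the member higher than the mean (1.05 ± 0.17). The list median was -0.56 against leaves and -3.90 against roots, so the labelled hypocotyls carried far less signal of these markers than the labelled roots. No marker that defines hypocotyls alone was used, and the label was checked only against markers of other organs.

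Genes that loosen the cell wall during elongation split by member. Of 27 expansins, 8 were higher and 9 lower than the mean, but none was peaked, 5 were poor and 1 lay between, with a median of -0.47. EXPA4, the example of a higher member, averaged 6952 ± 929 in hypocotyls, 6368 ± 1462 in roots and 1154 ± 332 in leaves (SD, n = 5), and it was called against leaves (2.63 ± 0.20) but not against roots (0.14 ± 0.20). EXPA8 was poor (-2.56 ± 0.26), as were EXPA11 (-6.10 ± 0.61), EXPA14 (-4.54 ± 0.69) and EXPB1 (-2.52 ± 0.29), these 3 at low signal, and EXLB1 (-2.06 ± 0.30). EXPA8 and EXLB1 both lost their class without the plate 2 pool, and without plate 6 replicate 2 and plate 6 replicate 1, respectively. EXPA8 lost it with means per plate too.

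Of 30 xyloglucan endotransglucosylases, which cut and rejoin the xyloglucan tethers of the wall, 6 were higher and 10 lower, with 2 peaked, 4 poor, 2 between and a median of -0.21. XTH28 (0.76 ± 0.09) and XTH9 (1.10 ± 0.15) were peaked. XTH19, a poor member, read 43.1, 118, 121, 162 and 145 in hypocotyls, 597 to 1235 in leaves and 856 to 1784 in roots, a difference of -3.24 ± 0.23. Its neighbours in the family, XTH17 and XTH18, were poor too, at -2.59 ± 0.24 and -1.14 ± 0.19, and so was XTH6 at low signal (-4.37 ± 0.45), whose class was lost in 9 of 13 alternatives. Without plate 6 replicate 2, XTH9 and XTH18 left their classes too, and so they did with means per plate. XTH9 also left its class without plate 6 replicate 1, and XTH18 without plate 2 and with no replicate block or a random one.

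Of 19 genes of gibberellin and brassinosteroid, hormones that promote elongation, 2 were higher and 7 lower, with none peaked, 3 poor, 3 between and a median of -0.73. GASA4, another gibberellin-regulated peptide, read 1634, 3892, 5408, 2109 and 2095 in hypocotyls against 7732 to 12068 in leaves and 12543 to 16745 in roots, and BR6OX2, which makes the active brassinosteroid, differed from the mean by -1.69 ± 0.14. GA3OX1, which makes active gibberellin, was higher than the mean by 1.53 ± 0.38 but missed the threshold against roots (adjusted p = 0.11). Its hypocotyl arrays read 708, 2279, 2766, 487 and 653, with both plate 4 pools far above the rest.

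Of 18 light-signalling genes, 1 was higher and 4 were lower, against 11.4% and 9.99% of all probe sets. In the list, 3 were poor and 5 lay between, with a median of -0.11. NPH3, which carries the phototropism signal from the blue-light receptor, was poor. It read 119, 96.5, 158, 79.8 and 123 in hypocotyls, 1008, 771, 955, 1028 and 1107 in leaves and 443, 332, 345, 488 and 399.5 in roots, a difference of -2.47 ± 0.16. ELIP1, a light-stress protein of chloroplasts, and HB-2, a shade-response homeobox gene, were poor as well, at -2.41 ± 0.39 and -1.04 ± 0.12.

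Of 15 aquaporins, the water channels, 3 were higher and 6 lower, against 11.4% and 9.99% of all probe sets. In the list, 1 was peaked, 3 were poor and 2 lay between, with a median of -0.32. TIP2;2 of the vacuole membrane read 129.9, 159.6, 35.2, 129 and 104 in hypocotyls, 637 to 828 in leaves and 1626 to 6271 in roots, a difference of -3.86 ± 0.40. PIP2;1 and PIP1;5 of the plasma membrane were poor at -1.07 ± 0.18 and -1.05 ± 0.15. These calls were lost when single pools were left out (3 and 4 of the 5 pools) and with means per plate. PIP1;3 was peaked by a small margin (0.52 ± 0.10 above roots), and not with means per plate.

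Some pathways placed hypocotyls between the other organs. All but 1 of 32 photosynthesis genes lay between, in the order leaves, hypocotyls, roots, with a list median of -1.83 against leaves and 2.66 against roots. LHCA1, an antenna protein of photosystem I, read 10378, 6049.9, 6366, 7889 and 7689 in hypocotyls, 22384, 29156, 31511, 22167 and 19046 in leaves and 834, 522, 409, 524 and 899.8 in roots. The exception was CA1, the chloroplast carbonic anhydrase, which read 33.6, 62, 4.35, 14.2 and 50.8 in hypocotyls and 5.17, 2.15, 39.2, 12.2 and 2.59 in roots against 9029, 10784, 12097, 11461 and 6487 in leaves, and was not called between hypocotyls and roots (adjusted p = 0.23). Against the mean, 8 of the 32 were higher and 2 lower, and none was peaked or poor.

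Suberin, the corky barrier of roots and of thickening stems, showed the opposite order. Of 11 genes, 10 lay between with roots highest, with a median of 2.74 against leaves and -2.10 against roots, and 1 was higher than the mean. CYP86A1, a fatty acid hydroxylase of suberin synthesis, read 959, 1169.8, 1612, 522 and 634 in hypocotyls, 4.35 to 58.6 in leaves and 2591 to 3548 in roots. It differed from leaves by 5.82 ± 0.46 and from roots by -1.83 ± 0.46 (not called without plate 6 replicate 2), and among hypocotyl arrays both plate 6 pools were lowest. With means per plate it no longer lay between.

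Of 13 glucosinolate genes, 5 were higher and none lower, against 11.4% and 9.99% of all probe sets. The list had 7 between, 1 peaked and a median of 0.40. The peaked gene, the transporter NPF2.11 (0.77 ± 0.11), lost its class without plate 4 replicate 1 or either plate 6 pool, and with means per plate. Of 14 jasmonate genes, 3 were higher and 2 lower, with 1 peaked (the repressor JAZ5, 1.35 ± 0.20, lost with no replicate block or with a random one), 2 between and a median of 0.41. Of 12 mitotic cell cycle genes, 6 were higher and none lower, but none was peaked, with a median of 0.43. The mitotic kinase gene CDKB2;1 averaged 998 in hypocotyls, 569 in leaves and 776 in roots. Its hypocotyl arrays (878 to 1145) overlapped its root arrays (575 to 1060). Its call against the mean was lost in 5 alternatives, and those of KN, CDKB2;2 and CYCA1;1 in 7, 4 and 3.

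Of 12 flavonoid and anthocyanin genes, 2 were higher and 2 lower, with 1 poor (the flavonol synthase FLS1, -2.24 ± 0.21) and a median of 0.00. Hypocotyl arrays of DFR, the reductase that leads to anthocyanin, read 1432, 1083, 2311, 396 and 512, with plate 6 below the other plates. None of 8 seed storage genes was called, all at low signal, at a median of -0.39 for the list. Of 8 reference genes often used for scaling, 1 was called. ACT2, an actin, was poor, with a difference of -0.58 ± 0.09, but lost its class under quantile normalisation and with means per plate, and the list median was 0.13.

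**Figure D4:**
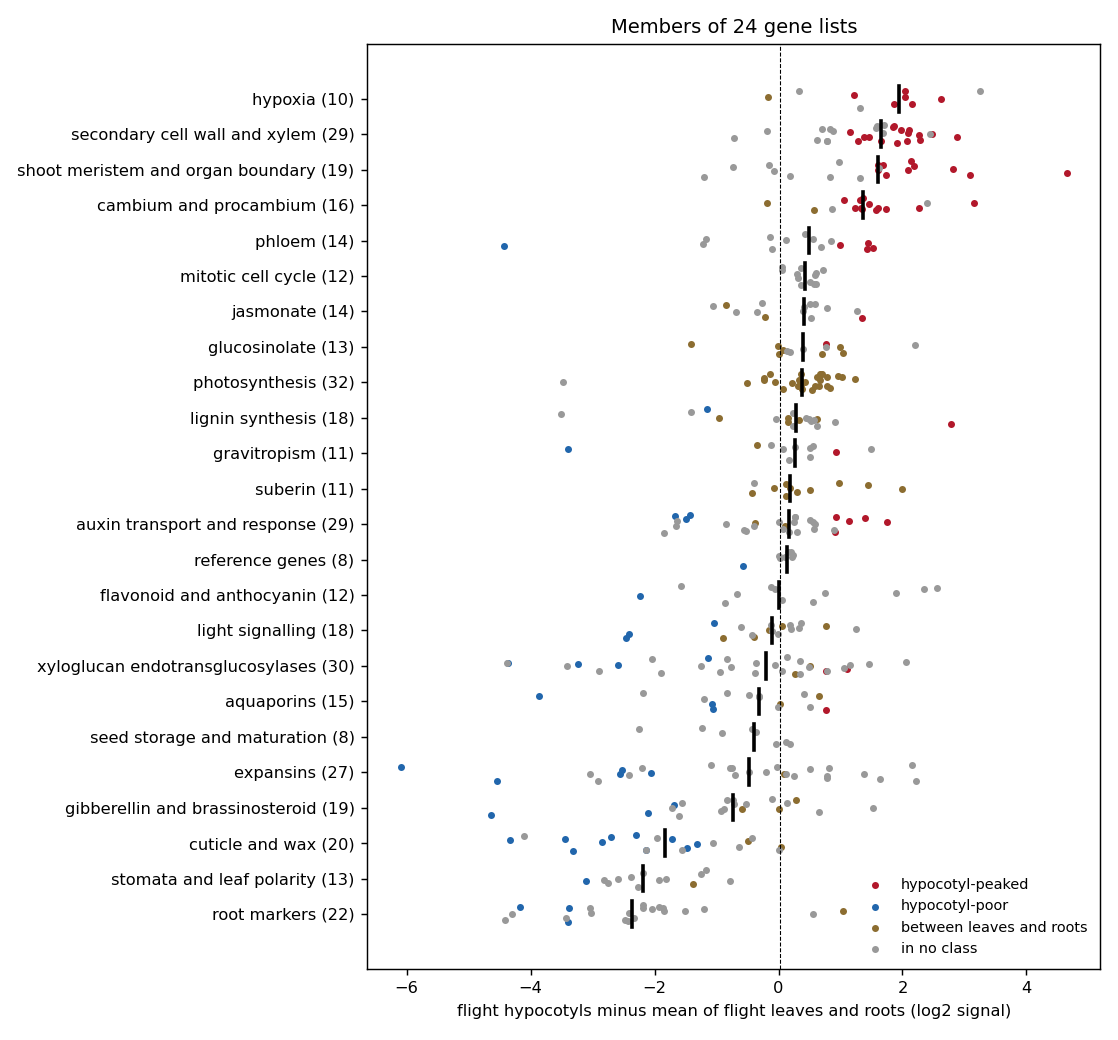
Each point is 1 gene, placed by its log2 difference of flight hypocotyls from the mean of flight leaves and roots, in 24 lists with the number of measured genes in parentheses. Black bars mark list medians, from 1.95 for hypoxia to -2.37 for root markers, the dashed line marks the median over all probe sets (0.02), and the colours give the class against leaves and roots.

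The ground control hypocotyls gave the same measurement in plants that the flight comparison did not use. There, 3051 probe sets were higher than the mean of leaves and roots (13.4%) and 2785 lower (12.2%), with 1150 peaked (5.06%) and 881 poor (3.87%). Of the 894 probe sets peaked in flight, 623 were peaked in the ground control, which is 69.7% of the flight and 54.2% of the ground class, and 271 fell in no class. None was poor or between there, and 887 lay on the same side of the mean. Of the 691 poor in flight, 448 were poor on the ground (64.8% of the flight and 50.9% of the ground class), 243 fell in no class and 677 lay on the same side. Without the plate 2 ground pool, which holds the leaf array that stood apart, 2291 probe sets were higher, 2094 lower, 858 peaked and 663 poor.

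The 24 genes named by rule were all in the same class in the ground control. STM read 1735, 2432, 2132, 3489.9 and 2965 in ground hypocotyls, 415, 315, 449.6, 573 and 405 in leaves and 5.42, 9.27, 50.8, 43.4 and 76.6 in roots, a difference of 4.61 ± 0.45 against 4.66 in flight. LBD41 differed from the mean by 1.99 ± 0.19 on the ground and LTP6 by -6.29 ± 0.62. By list, ground hypocotyls had 8 peaked meristem genes, 17 xylem, 12 cambium and 3 hypoxia genes, and 10 poor cuticle genes, with all 20 cuticle genes below the mean.

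Of the 24 lists, flavonoid genes had the largest gap between environments in the number peaked. On the ground 8 of 12 were higher and 6 were peaked, with a median of 1.09. TT4, chalcone synthase, the entry enzyme of the pathway, read 1875, 1767, 2581, 530.4 and 752 in flight and 2449.6, 5233, 5385, 5059 and 2464 in ground hypocotyls, and DFR read 1833, 3853, 4352, 4227 and 1604 in ground hypocotyls. For 6 members there was an unadjusted p under 0.05 for the difference between flight and ground, and none passed adjustment, with TT4 at an adjusted p of 0.60.

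The difference between flight and ground in the hypocotyl contrast was tested directly over 30 arrays. Against the mean of leaves and roots, limma called 0 probe sets (0.0%), with a smallest adjusted p of 0.365. At an unadjusted p under 0.05 there were 1205 of 22746, close to the share that this threshold passes by chance. Among them were 50 of the 894 peaked and 90 of the 691 poor probe sets. The classes were called from the same flight contrast that enters this difference, so their counts are no separate check. PS2, a phosphatase of the phosphate starvation response, was among those with the smallest p. It was peaked in both environments, with a difference from the mean of 1.56 ± 0.25 in flight and 2.99 ± 0.13 on the ground (adjusted p of the difference = 0.60). In flight it read 1578, 1479, 1469, 2127 and 2157 in hypocotyls, 369.9, 323, 210.1, 1008 and 1032 in leaves and 473, 441, 333, 1935 and 1372 in roots, with both plate 6 pools high in leaves and roots. It was no longer peaked in flight without plate 2 or plate 4 replicate 1, with no replicate block or a random one, or with means per plate.

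**Figure D5:**
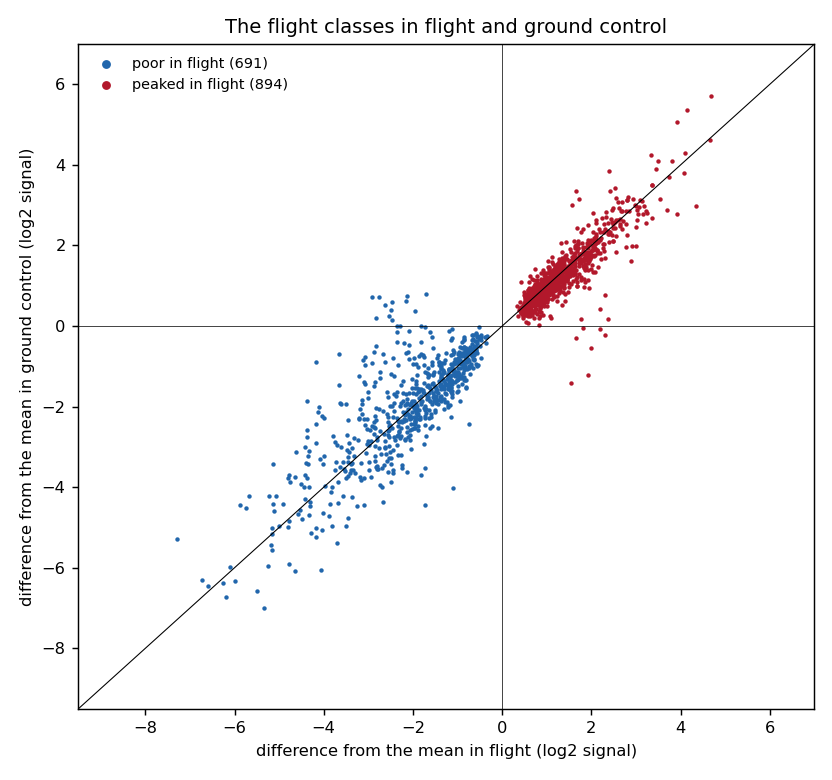
Each point is a probe set that was hypocotyl-peaked (894, red) or hypocotyl-poor (691, blue) in flight, with its log2 difference from the mean of leaves and roots in flight on the x axis and in the ground control on the y axis. The line marks equal differences, and 7 peaked and 14 poor probe sets lie on the other side of 0 in the ground control.

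Split by organ, the test called 1 probe set against leaves alone (0.0044%) and 5 against roots alone (0.022%). Of these, AT2G35290 was peaked in flight and in no class on the ground, and none was poor in flight. AT1G74450, UCP5, a mitochondrial carrier, AT2G35290 and NUDT21, a nudix hydrolase, were higher in hypocotyls than in roots on the ground by 2.33, 2.31, 2.48 and 1.51 and differed from roots in flight by 0.67, 0.87, 0.91 and 0.09 (adjusted p of the difference between environments = 0.0422 for each). In NUDT21 the root arrays averaged 3358 ± 977 in flight and 838 ± 514 on the ground (SD, n = 5), and the hypocotyl arrays 3736 ± 1488 and 2443 ± 1573. ADF8, an actin-depolymerising factor, differed from roots by -4.32 in flight and -7.59 on the ground (adjusted p = 0.0422). AT4G14980 differed from leaves by 1.18 in flight and -3.29 on the ground (adjusted p = 0.025), and both genes were of low signal.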

How the data were processed

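Each organ sample was read on 1 Affymetrix ATH1 array. The deposited values are linear signal intensities that the authors computed with MAS5 in Affymetrix Expression Console (background adjustment, normalisation and summary per probe set), with no version given in the sources used here. The deposited columns of fold changes, p and q values hold the study's own comparisons and were not used. The 6 whole-plant arrays were not used.

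Signals were taken to log2 without an offset, and the 64 array controls were left out. Of 22746 probe sets, 21447 name 1 gene, 1144 several and 155 none, and 22091 have a locus in the RefSeq gene table. In R 4.3.3, limma 3.58.1 (lmFit, eBayes) was fitted to the 15 flight organ arrays with plate and replicate as a fixed block, and p-values were adjusted by Benjamini-Hochberg over all probe sets (threshold 0.05). Every adjusted p in the text comes from limma. The same fit was made on the 15 ground arrays, and the difference between environments was tested over 30 arrays. The study's methods used Student's t-test between flight and ground, so the block and the organ contrast were chosen here. P-values measure how the organ differences vary between pools of plants, since the block removes the level of each pool. Pools of 1 plate share that plate.

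Lists held 449 genes, of which 412 were measured. Members and lists were chosen with earlier results of these data known. Named were the 12 peaked and 12 poor genes with the largest smaller difference (probe sets of 1 gene, above the lowest 40% by mean log2 signal, in order in all 5 pools), up to 4 genes per list with the smallest p, and the 5 with the smallest p each way for the difference between environments. Further list members were named after their values were seen, among them KNAT1, XCP1, PDC1, ADH1, CER3, SHR and CASP1.

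The replicate block rests on the labels, since equal numbers mark the same plate. Above the low-signal limit, deviations from organ means of same-numbered flight arrays correlated at 0.143 to 0.347 for hypocotyls and leaves, 0.10 to 0.304 for hypocotyls and roots and -0.0443 to 0.239 for leaves and roots. Differently numbered arrays averaged -0.054, -0.046 and -0.026. The same-numbered array was the closest for only 2, 3 and 2 of 5 arrays, so the signals show the pairing only in part. In simulated data, 200 of 22746 probe sets were changed in flight hypocotyls, drawn only from those of higher mean signal. Recovery of low-signal changes was therefore not tested, and 244 of the 691 poor probe sets were of low signal. The fit was tested on these simulated data. It recovered 65.67%, 100% and 100% of changes of 1, 2 and 3 on the log2 scale. It placed 29.85%, 97.01% and 98.48% in a class, with 13 unchanged probe sets called and 2 in a class. The simulated leaves and roots did not differ, and the noise was normal and independent apart from a shift per pool. In the data leaves and roots differed and far more probe sets were called, so these rates need not hold there. Alternatives were other blocks, scalings and filters, an offset, limma's trend and robust settings, means per plate, all 30 arrays, paired differences, the methods' t-test and leaving out each pool. The number of arrays limits the precision, and detection calls were not used.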

Additional observations from a re-analysis of the deposited data

Results flagged for a closer look

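Of 181 sets of 5 values examined, 10 held 1 value far from the other 4, and chance flags about 1 set in 20. Most sets were named genes, and the rest were lower quartiles and medians of the arrays of each organ and environment. All 10 flagged sets were genes. The values given are log2 differences of a flight hypocotyl array from the mean of its own leaf and root arrays. In the plate 6 replicate 1 pool, AT3G02500 stood at 3.139 (others 3.481 to 3.611), EXPB1 at -4.065 (others -2.478 to -1.954), HAI2 at -2.355 (others -1.691 to -1.498) and IRX3 at 2.518 (others 1.733 to 1.93). In plate 6 replicate 2, FDH stood at -3.14 (others -2.197 to -1.852) and XCP1 at 1.113 (others 2.174 to 2.477). In plate 4 replicate 2, PXY stood at 2.061 (others 1.583 to 1.711) and TIP2;2 at -5.827 (others -3.684 to -2.977). SUS1 stood at 1.273 in plate 4 replicate 1 (others 1.968 to 2.037) and MYB12 at -1.478 in plate 2 (others -0.8016 to -0.6255). The direction was the same in all 5 pools for each of these genes.

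A further 6 probe sets differed between flight and ground by limma's test of the difference. Flight minus ground of the hypocotyl difference from leaves was 4.471 for AT4G14980, whose flight hypocotyl arrays read 4.42, 8.80, 40.1, 2.29 and 6.10, near the floor of the array. Flight minus ground of the difference from roots was -1.422 for NUDT21, -1.576 for AT2G35290, -1.663 for AT1G74450 and -1.438 for UCP5. In these 4 genes the mean root signal was higher in flight than on the ground, at 3358 against 838 for NUDT21, 868 against 156 for AT2G35290, 1506 against 329 for AT1G74450 and 1872 against 595 for UCP5. For ADF8 it was 3.271, with hypocotyl means of 26.8 in flight and 6.15 on the ground, also near the floor.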

How the results depend on the processing

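The flight counts were 2583 higher, 2273 lower, 894 peaked and 691 poor. With no replicate block they were 2572, 2316, 877 and 673, of which 782 peaked and 611 poor probe sets were shared with the main result. Ground counts with no replicate block were 3260, 2982, 1265 and 927. Means per plate, which leave 3 values per organ, gave 1315 higher, 1366 lower and 451 peaked in flight (429 shared), and 1382 higher, 1570 lower, 485 peaked and 534 poor on the ground. Quantile normalisation gave 2506, 2060, 937 and 628 in flight, a shared 75th percentile 2163, 2549, 792 and 769, and the offset 3010, 3113, 1133 and 734. Quantile normalisation moved the median difference from roots from -0.06 to 0.06. The methods' t-test called 2602 higher and 1875 lower at their unadjusted threshold and 2587 and 1865 after Benjamini-Hochberg adjustment.

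Leaving out 1 pool gave 1745 to 1903 higher, 1634 to 1722 lower, 609 to 673 peaked and 527 to 566 poor in flight. On the ground it gave 1986 to 2430 higher, 2010 to 2278 lower, 687 to 886 peaked and 637 to 694 poor, with 687 peaked without plate 4 replicate 1, 717 without plate 4 replicate 2 and 695 without plate 6 replicate 2. Probe sets that differed between environments were 0 to 1 (1 without flight plate 6 replicate 1), 1 against leaves alone and 5 against roots alone, these 2 chosen after seeing the data. Of 125 named genes in a class, 90 kept it in all settings and 35 lost it in 1 or more. Of 2385 values of named genes recomputed, 70 lost a call that the main result had made and 9 gained one. Losses included STOMAGEN, YAB1, GA3OX1 and DFR, whose calls against the mean were lost in 6, 5, 3 and 3 settings. CUC1, NST1, FAH1, C4H, EXPA14, IAA14 and HB-15 were not recomputed one by one. The sign of the difference from the mean turned for FAR4 with the offset (1.44 to -0.0146) and for EM6 without the plate 2 pool (-0.36 to 0.12, with -0.813 to 0.123 over the pools left out), and the cause was not tested. EM6 was called in none of these settings, while FAR4, not called against the mean in the main result, was called without plate 6 replicate 2 (1.90, adjusted p = 0.024). Hypocotyl signals near the floor limit the size of the poor differences, and leaf or root signals near it limit that of some peaked ones.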

Other observations

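Although no probe set passed adjustment for the difference between flight and ground in the hypocotyl contrast, the 5 with the smallest p in each direction were read as values. Those whose contrast was lower in flight were PS2, AT1G22810, IAA20, FMO GS-OX4 and HAI2, with flight minus ground of -1.43 ± 0.28, -3.84 ± 0.80, -3.47 ± 0.79, -0.71 ± 0.16 and -1.70 ± 0.41. HAI2, a phosphatase of the abscisic acid response, read 15.4, 28.4, 28.8, 11.8 and 22.7 in flight hypocotyls and 80.8, 61.1, 63.1, 25.1 and 79.8 in ground hypocotyls. Those whose contrast was higher in flight were AT4G14980, AT3G61400, FLA10, AT5G03640 and DGK6, with 3.13 ± 0.53, 3.14 ± 0.67, 1.68 ± 0.37, 3.62 ± 0.80 and 3.36 ± 0.76, all 5 at low signal, as were AT1G22810, IAA20 and HAI2. The adjusted p was 0.36 for AT4G14980 and 0.60 for the other 9.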
